A study of Mus musculus with 12 samples.

Results

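10 genes that mark venous or lymphatic endothelium were followed through 12 gene expression libraries. The cells were lung endothelial cells of C57BL/6J mice, sorted 5 days after birth. The members were the rows named Nr2f2, Ephb4, Vwf, Selp, Slc6a2, Prox1, Lyve1, Pdpn, Mmrn1 and Reln, and each was present in all 12 tables, among 24359 genes used. L12YT-ECKO mice carried VE-cadherin-CreERT2 and floxed alleles of Lats1, Lats2, Yap and TAZ (gene Wwtr1). L12-ECKO mice carried VE-cadherin-CreERT2 with floxed Lats1 and Lats2. The WT mice are labelled wild type, with nothing said of a Cre or of an inducer in them. The Cre is driven by the promoter of the VE-cadherin gene, which is active in endothelium as a whole, so the deletions were not aimed at veins or lymphatics. Each genotype had 4 libraries, and nothing in the labels says that they came from separate animals, so p-values measure only the spread between these libraries. LATS1 and LATS2 are the Hippo pathway kinases that restrain the co-activators YAP and TAZ.

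Veins and lymphatics have a common origin. The nuclear receptor COUP-TFII, encoded by Nr2f2, holds endothelial cells in a venous state and, in a subset of embryonic venous cells, acts with SOX18 to switch on PROX1, the transcription factor that sets lymphatic identity. Lymphatic endothelial cells then carry LYVE1, a hyaluronan receptor, and podoplanin on their surface and make multimerin 1 and reelin. LYVE1 is also made by liver sinusoidal endothelium and some macrophages, podoplanin by alveolar type 1 epithelial cells, and von Willebrand factor, P-selectin and multimerin 1 by platelets and megakaryocytes.

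The proximal promoter of Nr2f2 is shown because Nr2f2 alone among the venous members had groups that did not overlap. RefSeq promoter sequences (GRCm38.p6) were found for 7 of the 10 members, with 8 start sites. The sequence below lies on the minus strand of mouse chromosome 7, at chr7:70366697-70366996, and runs from 250 bases before the annotated start. Capitals mark the 50 bases from the start onward.
Nr2f2: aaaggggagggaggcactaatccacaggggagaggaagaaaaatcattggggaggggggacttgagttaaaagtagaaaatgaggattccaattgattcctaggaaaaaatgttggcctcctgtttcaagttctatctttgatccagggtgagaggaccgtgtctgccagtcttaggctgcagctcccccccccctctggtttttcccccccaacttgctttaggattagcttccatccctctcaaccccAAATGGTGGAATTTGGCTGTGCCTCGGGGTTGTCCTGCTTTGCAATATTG
The core motif bound by the TEAD partners of YAP and TAZ, GGAATG, was searched on both strands. It occurred in 0 of the 8 member promoters and in 14.7% of 32851 mouse promoters of the same length. The SOX core motif AACAAT occurred in 1 of the 8, that of Mmrn1, and in 10.7% of all promoters. These matches describe letters in a window of 300 bases and say nothing of binding.

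The deposited values are on a log2 scale that the authors had normalized, so a difference of 1 is a doubling. Between 9850 and 13078 genes lay above 0 in a library, and the depth behind the values is unknown. L12-ECKO replicate 3 had the fewest, and its lowest value above 0 was 4.98, so a member listed at 0 there may lie anywhere below that level. In 5 libraries (L12YT-ECKO replicates 3 and 4 and L12-ECKO replicates 2, 3 and 4) 33 consecutive rows sit 1 line away from their gene names. No WT library has this fault, so it overlaps with genotype. Hepatocyte markers moved with it, since their mean was 3.82 to 6.32 in these 5 libraries and 0.75 to 2.91 in the other 7. Sex was inferred from the genes Xist and Ddx3y. L12-ECKO replicates 2, 3 and 4, L12YT-ECKO replicate 3 and WT replicate 4 read as female. Sex thus also overlaps in part with genotype. Within L12-ECKO, replicates 2, 3 and 4 both read as female and have displaced rows, so sex and displacement cannot be told apart there. As for the labels, Wwtr1 lay at 8.16 to 9.37 in L12YT-ECKO, against 10.11 to 11.56 in L12-ECKO and 11.56 to 12.01 in WT. Yap1 lay at 6.69 to 8.20, 9.35 to 10.45 and 9.46 to 10.02 in the same order. Lats1 lay at 0 to 7.90, 0 to 7.40 and 5.32 to 7.45. Lats2 lay at 8.63 to 9.57, 9.71 to 10.33 and 8.42 to 9.34. The libraries read 3-prime ends and the deleted exons are not given, so the value of a floxed gene need not fall with its deletion. Lats1 and Lats2 thus check nothing here. All 12 pan-endothelial markers lay above 0 in every library, with means of 13.29 to 13.56 in L12YT-ECKO, 13.03 to 13.31 in L12-ECKO and 13.34 to 13.52 in WT.

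The members fell into 3 kinds by detection. Nr2f2, Ephb4, Vwf, Slc6a2 and Lyve1 lay above 0, and above 5, in all 12 libraries, which 30.6% of all genes did for the first of these levels. Pdpn lay above 0 in 11 libraries, Selp in 6, Mmrn1 in 5 and Reln in 1. Prox1 was listed at 0 in all 12 libraries, as were 29.3% of all genes. Of the 40 pairs of a member and a library in each group, 29 lay above 0 in L12YT-ECKO, 27 in L12-ECKO and 27 in WT. Above 5, the counts were 23, 25 and 24 in the same order. The lowest value above 0 in a library was 0.13 to 2.77 in L12YT-ECKO, 0.07 to 4.98 in L12-ECKO and 3.01 to 3.16 in WT. Counts above 0 are therefore not like for like between genotypes. Pdpn at 2.16 and Reln at 0.82 in L12YT-ECKO replicate 3 and Mmrn1 at 0.07 in L12-ECKO replicate 4 lay below the lowest such value of every WT library. Of the lymphatic members, Lyve1 alone lay above 0 throughout, so the lymphatic label rests on few detected genes here.

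**Figure D1:**
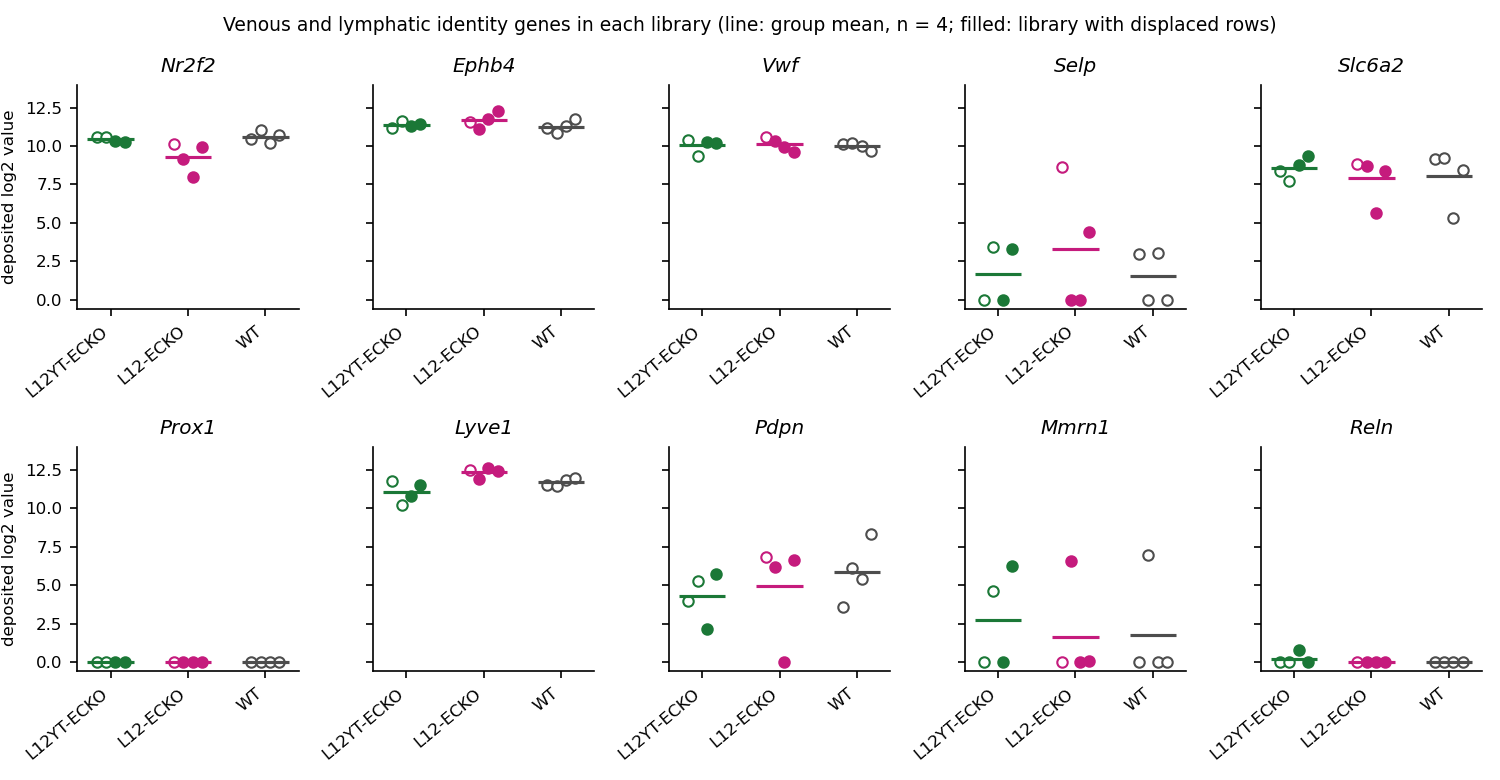
Deposited log2 value (vertical axis) of each of the 10 members in each library, by genotype (horizontal axis); lines are means of 4 libraries, points run from replicate 1 to 4, and filled points are libraries with displaced rows. Nr2f2 in L12-ECKO lies at 8.01 to 10.12, below every L12YT-ECKO and WT library, and Prox1 lies at 0 in all 12.

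7 of the 10 members passed the filter on low values and were tested with limma over 11633 genes, and Selp, Prox1 and Reln did not pass it. No member was called in any comparison at an adjusted p under 0.05. In L12YT-ECKO versus L12-ECKO 0.0688% of all genes were called, in L12YT-ECKO versus WT 0.0086% and in L12-ECKO versus WT 0.481%. Unadjusted p-values under 0.05 were found in L12YT-ECKO versus L12-ECKO for 1 member that lay higher (Nr2f2) and 1 that lay lower (Lyve1), against 6.08% of all genes (3.98% higher and 2.1% lower). For L12-ECKO versus WT they were found for 1 that lay higher (Lyve1) and 1 that lay lower (Nr2f2), against 12.2% of all genes (6.3% higher and 5.92% lower). For L12YT-ECKO versus WT they were found for 0 members, against 6.23% of all genes (4.13% higher and 2.11% lower). Without the filter, neither Selp nor Reln was called. The median difference of the 7 members was -0.06, 0.05 and -0.07 in these comparisons (L12YT-ECKO versus L12-ECKO, L12YT-ECKO versus WT, L12-ECKO versus WT), and that of all genes tested was 0.09, 0.08 and -0.02. The first comparison shares its L12-ECKO libraries with the last, and the others share WT, so opposite signs of 1 gene in them are not separate observations.

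**Figure D2:**
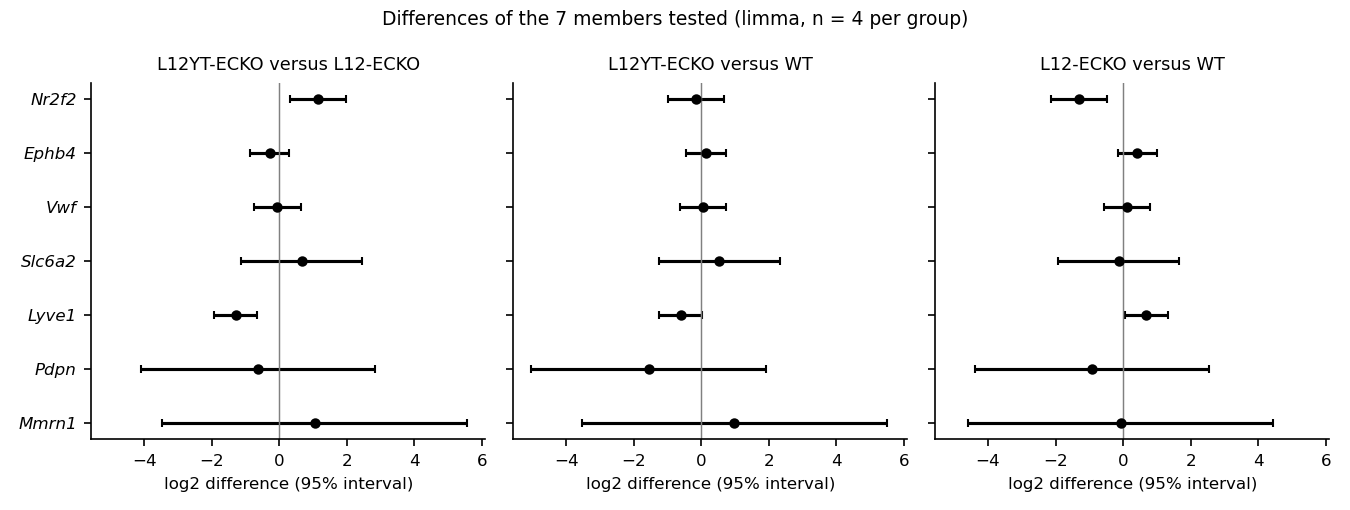
Log2 difference (horizontal axis) of the 7 members tested (rows) in each comparison; points are limma estimates with 4 libraries per group and bars are 95% intervals. The intervals of Nr2f2 and Lyve1 lie off 0 in the comparisons of L12YT-ECKO with L12-ECKO and of L12-ECKO with WT, while those of Pdpn and Mmrn1 span several units on both sides.

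Nr2f2 (chromosome 7, 70351944 to 70366735, minus strand, protein coding, GRCm38) encodes COUP-TFII. Its values were 10.60, 10.61, 10.31 and 10.25 in L12YT-ECKO, 10.12, 9.15, 8.01 and 9.95 in L12-ECKO, and 10.47, 11.06, 10.17 and 10.72 in WT. All 4 L12-ECKO libraries lay below all 8 others, with the highest of them only just under the lowest WT value, while L12YT-ECKO and WT overlapped. Groups without overlap in this direction were seen for 2.75% of genes in L12YT-ECKO versus L12-ECKO and for 3.36% in L12-ECKO versus WT. No member was apart in L12YT-ECKO versus WT (2.54% of genes higher and 2.17% lower) or higher and apart in L12-ECKO versus WT (2.97% of genes). The group means were 10.44 ± 0.19 in L12YT-ECKO, 9.31 ± 0.96 in L12-ECKO and 10.61 ± 0.38 in WT (SD, n = 4 each). The log2 difference was 1.14 in L12YT-ECKO versus L12-ECKO (SE 0.396, 95% interval 0.31 to 1.97, limma adjusted p = 0.607) and -1.30 in L12-ECKO versus WT (SE 0.396, 95% interval -2.13 to -0.47, limma adjusted p = 0.173). In L12YT-ECKO versus WT it was -0.16 (95% interval -0.99 to 0.67, limma adjusted p = 0.961). Fewer cells of a type and less RNA per cell cannot be told apart in such pooled cells.

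The spread of Nr2f2 was widest in L12-ECKO, and its lowest value came from replicate 3, the library with the fewest genes above 0. Without that library the difference was 0.70 in L12YT-ECKO versus L12-ECKO and -0.87 in L12-ECKO versus WT. Among the 7 libraries without displaced rows, which hold 1 L12-ECKO library (10.12), the differences were 0.48 and -0.49. Among the 5 with displaced rows, the L12YT-ECKO values of 10.31 and 10.25 lay above the 3 L12-ECKO values of 9.15, 8.01 and 9.95, and differed by 1.25 (limma adjusted p = 0.99, SE 0.561). With the displacement as a covariate the difference in L12-ECKO versus WT was -0.81 (limma adjusted p = 0.733). With inferred sex as a covariate it was -1.115 (limma adjusted p = 0.424). Displacement and inferred sex coincide within L12-ECKO, so these fits are not separate checks. B130024G19Rik, a noncoding gene on the opposite strand that overlaps Nr2f2 away from its 3-prime end, was looked up after its position was known. It lay above 0 in 1 L12YT-ECKO library, at 3.70, in all 4 L12-ECKO libraries, at 2.92 to 6.25, and in 1 WT library, at 3.08. Whether the counting used strand is not stated, so its reads and those of Nr2f2 may not be fully separated.

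Ephb4 (chromosome 5, 137350109 to 137378669, plus strand) encodes the receptor tyrosine kinase that marks venous endothelium and binds ephrin-B2, its arterial partner. It lay at 11.16, 11.65, 11.28 and 11.45 in L12YT-ECKO, 11.55, 11.12, 11.77 and 12.26 in L12-ECKO, and 11.14, 10.82, 11.30 and 11.74 in WT. The 3 groups overlapped throughout. The differences were -0.29 in L12YT-ECKO versus L12-ECKO (95% interval -0.88 to 0.30), 0.13 in L12YT-ECKO versus WT (-0.46 to 0.72) and 0.42 in L12-ECKO versus WT (-0.17 to 1.01), with limma adjusted p-values of 0.961, 0.954 and 0.546. Zan, a gene on the opposite strand, reaches within 1000 bases of the 3-prime end of Ephb4 and lay at 0 to 6.91 over the 12 libraries. The ephrin-B2 gene Efnb2, named here after its values were seen, differed by 0.98 in L12YT-ECKO versus L12-ECKO (SE 0.324, limma adjusted p = 0.574) and by -1.25 in L12-ECKO versus WT (SE 0.324, limma adjusted p = 0.106), without passing in either.

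Vwf (chromosome 6, 125546774 to 125686679, plus strand) encodes von Willebrand factor, the clotting protein stored in Weibel-Palade bodies and richest in veins and large vessels. Its values were 10.40, 9.34, 10.28 and 10.21 in L12YT-ECKO, 10.59, 10.34, 9.94 and 9.61 in L12-ECKO, and 10.12, 10.23, 9.99 and 9.68 in WT. The means of 10.06 ± 0.49, 10.12 ± 0.43 and 10.01 ± 0.24 (L12YT-ECKO, L12-ECKO and WT, SD, n = 4 each) differed by less than the spread within groups. The 95% interval of the difference ran from -0.75 to 0.63 in L12YT-ECKO versus L12-ECKO, from -0.64 to 0.74 in L12YT-ECKO versus WT and from -0.58 to 0.80 in L12-ECKO versus WT.

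Selp (chromosome 1, 164115264 to 164150026, plus strand) encodes P-selectin, the leukocyte-tethering receptor held in the same granules. It lay at 0, 3.42, 0 and 3.32 in L12YT-ECKO, 8.67, 0, 0 and 4.43 in L12-ECKO, and 3.01, 0, 3.08 and 0 in WT. 2 of 4 libraries per genotype were above 0, and 1 of the 12 lay above 5. That library, L12-ECKO replicate 1, also held the leukocyte gene Ptprc at 10.15, against at most 5.91 in L12YT-ECKO, 3.73 in the other L12-ECKO libraries and 3.90 in WT. It held the neutrophil gene S100a8 at 15.20, against 0 to 10.07 in the other 11 libraries. S100a8 was on none of the planned marker lists. Platelet and megakaryocyte markers did not stand out there, with a mean of 2.50 of 9 markers over a range of 0.62 to 3.37 across all libraries. The part of these cells in the Selp value was not tested. Gm16548, an opposite-strand gene near the 3-prime end of Selp, lay above 0 in that library only, at 5.64.

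Slc6a2 (chromosome 8, 92960079 to 93001667, plus strand) encodes the noradrenaline transporter and is a marker of lung vein endothelium in mice. It lay at 8.40, 7.73, 8.75 and 9.38 in L12YT-ECKO, 8.85, 8.70, 5.66 and 8.41 in L12-ECKO, and 9.17, 9.22, 5.32 and 8.41 in WT. 10 of the 12 libraries lay between 7.73 and 9.38, and 1 library each of L12-ECKO and WT lay near 5.5. These low libraries set the spread. The difference in L12-ECKO versus WT was -0.13 with all libraries (SE 0.845, 95% interval -1.92 to 1.67, limma adjusted p = 0.967), 0.62 without L12-ECKO replicate 3 and -1.03 without WT replicate 3. L12YT-ECKO differed from L12-ECKO by 0.66 (-0.09 without L12-ECKO replicate 3) and from WT by 0.53 (-0.37 without WT replicate 3), again without passing.

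Prox1 (chromosome 1, 190118035 to 190170714, minus strand) was listed at 0 in all 12 libraries. With the depth unknown no upper limit can be given for it. Prox1 is also active in hepatocytes, and it was at 0 in the 5 libraries in which hepatocyte markers were highest too. The mean of those markers there was only 3.82 to 6.32, so this 0 tells nothing of hepatocyte RNA or of Prox1. Other lymphatic genes were partly detected. Flt4, which encodes the VEGF-C receptor VEGFR3 and is also made by growing blood vessels, lay at 7.96 to 8.93 in L12YT-ECKO, 7.43 to 9.40 in L12-ECKO and 7.17 to 8.65 in WT. Ccl21a, a lymphatic chemokine gene with near-identical copies, lay above 0 in 2 libraries of each genotype. Both were singled out after their values were seen.

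Lyve1 (chromosome 7, 110850607 to 110863239, minus strand) encodes the hyaluronan receptor and was the lymphatic member with the highest values. It lay at 11.79, 10.23, 10.78 and 11.49 in L12YT-ECKO, 12.49, 11.92, 12.61 and 12.42 in L12-ECKO, and 11.50, 11.45, 11.83 and 11.94 in WT. All 4 L12YT-ECKO libraries lay below all 4 L12-ECKO libraries, which was seen for 1.62% of genes in L12YT-ECKO versus L12-ECKO, and WT overlapped with both. The means were 11.07 ± 0.71 in L12YT-ECKO, 12.36 ± 0.30 in L12-ECKO and 11.68 ± 0.24 in WT (SD, n = 4 each). The log2 difference was -1.29 in L12YT-ECKO versus L12-ECKO (SE 0.307, 95% interval -1.93 to -0.65, unadjusted p = 0.000482, limma adjusted p = 0.196) and 0.68 in L12-ECKO versus WT (SE 0.307, 95% interval 0.04 to 1.32, limma adjusted p = 0.384). In L12YT-ECKO versus WT it was -0.61 (SE 0.307, 95% interval -1.25 to 0.04, limma adjusted p = 0.805), and -0.32 without L12YT-ECKO replicate 2.

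The Lyve1 difference between L12YT-ECKO and L12-ECKO was -1.18 among the libraries with displaced rows (SE 0.371, limma adjusted p = 0.99). Among those without displaced rows it was -1.48, which rests on 1 L12-ECKO library, replicate 1, and gives no replicate check. Markers of macrophages and of liver sinusoidal endothelium, which also make LYVE1, were measured beside Lyve1. Lung capillary markers, all 8 above 0 in every library, had means of 11.29 to 11.69 in L12YT-ECKO, 11.06 to 11.68 in L12-ECKO and 11.31 to 11.72 in WT. Whether the lung blood endothelium itself made Lyve1 was not tested. Macrophage markers had means of 0.72 to 2.18 in L12YT-ECKO, 1.46 to 4.68 in L12-ECKO and 0 to 1.83 in WT, and of 11 such markers 3 to 6, 3 to 9 and 0 to 4 lay above 0. Summed, they reached 4.06 to 8.16, 6.84 to 10.89 and 0 to 7.22 on the log2 scale. WT replicate 4, with 0 of them above 0, had Lyve1 at 11.94, and L12-ECKO replicate 1, with the highest sum of 10.89, had it at 12.49. These extremes do not relate the markers to Lyve1 over all 12 libraries. A marker listed at 0 may also be a transcript not sampled. Liver sinusoidal markers, of which 3, 3 to 6 and 3 to 5 of 8 lay above 0, had sums of 11.23 to 11.67, 10.93 to 12.02 and 10.63 to 11.39 in the same order. Among these, Clec4g was at 0 in all 12 libraries and Stab2 at 0 in all 4 L12YT-ECKO libraries and in 2 L12-ECKO and 3 WT libraries. Fcgr2b, Oit3 and Dnase1l3 lay above 0 in 2 libraries each. Gpr182 (9.31 to 11.56), Stab1 (9.295 to 10.41) and Bmp2 (3.90 to 9.55) lay above 0 in all 12. The sums thus rest mainly on Gpr182, Stab1 and Bmp2 and are no measure of liver sinusoidal cells. The part of these cells in the Lyve1 differences was not tested.

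**Figure D3:**
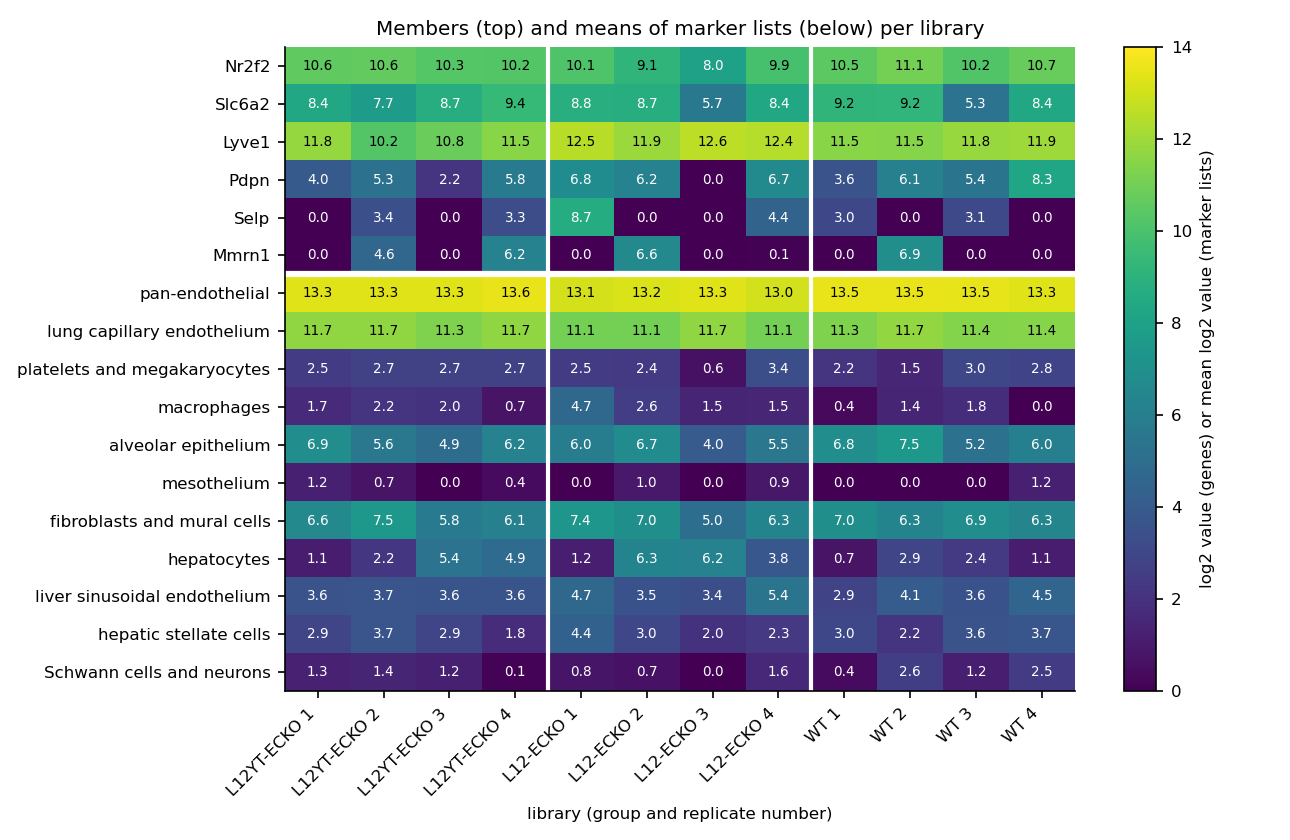
Log2 value of 6 members (top) and mean log2 value of 11 marker lists (below) in each library (columns, genotype and replicate number), with the scale from 0 to 14. Lyve1 is at 10.2 to 12.6 over the libraries, macrophage means are at 0 to 4.7, and hepatocyte means are highest in the libraries with displaced rows.

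Pdpn (chromosome 4, 143267431 to 143299564, minus strand) encodes podoplanin. It lay at 3.99, 5.26, 2.16 and 5.75 in L12YT-ECKO, 6.83, 6.20, 0 and 6.65 in L12-ECKO, and 3.59, 6.10, 5.40 and 8.31 in WT. The groups overlapped, and the value of 0 was in L12-ECKO replicate 3. The same library held the type 1 epithelial gene Ager at 0, against 9.09 to 10.38 in the other L12-ECKO libraries, 9.86 to 11.38 in L12YT-ECKO and 5.88 to 11.67 in WT, and it had the lowest mean of alveolar epithelial markers, 4.04. Of these 11 markers 8 to 11 lay above 0 in L12YT-ECKO, 6 to 11 in L12-ECKO and 8 to 11 in WT, with sums of 11.33 to 13.22, 10.71 to 12.29 and 10.90 to 12.98. Their part in the Pdpn values was not tested. Pdpn differed by -0.63 in L12YT-ECKO versus L12-ECKO, by -1.56 in L12YT-ECKO versus WT and by -0.93 in L12-ECKO versus WT, with a SE of 1.66 in each. Without L12-ECKO replicate 3 the first of these was -2.27 and the last 0.71. Without WT replicate 4 the difference in L12YT-ECKO versus WT was -0.74.

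Mmrn1 (chromosome 6, 60924976 to 60989378, plus strand), which encodes multimerin 1, lay above 0 in 2 L12YT-ECKO libraries, 2 L12-ECKO libraries and 1 WT library. It lay at 0, 4.62, 0 and 6.23 in L12YT-ECKO, 0, 6.59, 0 and 0.07 in L12-ECKO, and 0, 6.94, 0 and 0 in WT. Replicate 2 was above 4 in each genotype. Its limma SE of 2.16 exceeded each difference (1.05, 0.98 and -0.07 in L12YT-ECKO versus L12-ECKO, L12YT-ECKO versus WT and L12-ECKO versus WT). Reln (chromosome 5, 21884454 to 22344702, minus strand), which encodes the secreted glycoprotein reelin, was at 0.82 in L12YT-ECKO replicate 3 and at 0 in all other libraries.

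**Figure D4:**
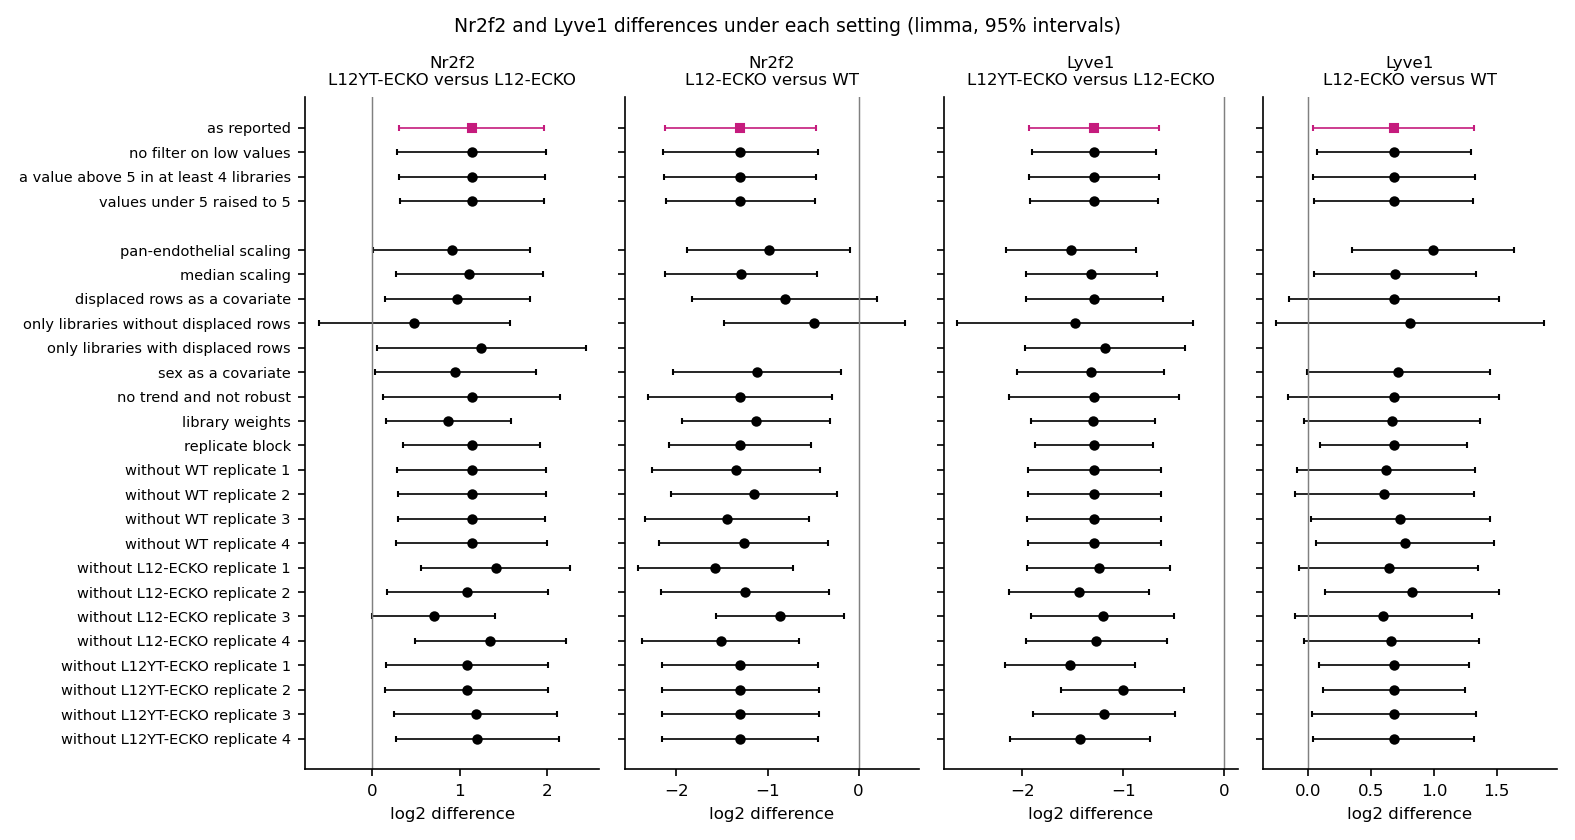
Log2 difference with its 95% interval (horizontal axis) of Nr2f2 and Lyve1 in L12YT-ECKO versus L12-ECKO and in L12-ECKO versus WT, as reported and under each other setting (rows). The Nr2f2 difference in L12-ECKO versus WT lies between -1.57 and -0.49, and Lyve1 keeps its sign in every row; the setting on another scale, log2(value + 1), is not drawn.

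Other genes of the same systems gave the setting. Their lists share genes, so counts and medians of different lists are not separate observations. Efnb2 is in the lymphatic, partner and arterial lists and Hey1 in the partner and arterial lists. Nrp2 is in the venous and lymphatic lists, and Angpt2 in the lymphatic and Weibel-Palade lists. Of the marker lists, the pan-endothelial one shares Tek and Emcn with the venous list and Ramp2 and Tie1 with the lymphatic list. The lung capillary one shares Plvap with the venous list and Calcrl with the lymphatic list. Of 12 further venous endothelial genes 11 were tested, and none was called. The list split into 6 higher and 5 lower in L12YT-ECKO versus L12-ECKO (median 0.26) and into 4 higher and 7 lower in L12-ECKO versus WT (median -0.26). The angiopoietin receptor gene Tek differed by 0.60 in L12YT-ECKO versus L12-ECKO and by -1.11 in L12-ECKO versus WT (SE 0.267, limma adjusted p = 0.0779). Plvap, which encodes a protein of vessel diaphragms, differed by -0.15 and -0.11 in these comparisons.

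Of 22 genes of lymphatic specification and growth 16 were tested, and none was called. With an unadjusted p under 0.05, 2 lay higher and 3 lower in L12YT-ECKO versus L12-ECKO, 3 higher and 1 lower in L12YT-ECKO versus WT, and 6 higher and 4 lower in L12-ECKO versus WT. Among all genes the shares at this level were 3.98% higher and 2.1% lower, 4.13% and 2.11%, and 6.3% and 5.92% in these comparisons. The medians of the list were -0.03, -0.02 and 0.37 in that order. Ramp2, which encodes a partner of the adrenomedullin receptor, differed by 0.51 in L12YT-ECKO versus L12-ECKO and by -0.80 in L12-ECKO versus WT (SE 0.218, limma adjusted p = 0.128). Fgfr3, a receptor gene of lymphatic growth, differed by 0.59 and 0.26. Among those singled out after their values were seen, Nrp2, the VEGF-C co-receptor gene of veins and lymphatics, differed by -0.86 in L12YT-ECKO versus L12-ECKO and by 0.92 in L12-ECKO versus WT (limma adjusted p = 0.704 and 0.256).

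Weibel-Palade body genes other than Vwf and Selp included 1 called member of 12 in L12-ECKO versus WT, against 0.481% of all genes. Edn1, which encodes the vasoconstrictor endothelin 1, averaged 12.34 ± 0.66 in L12-ECKO and 10.71 ± 0.38 in WT (SD, n = 4 each) and rose by 1.63 in L12-ECKO versus WT (SE 0.322, limma adjusted p = 0.0284). The call was kept in 6 of 12 fits that left out 1 library, with adjusted p-values of 0.0145 to 0.09 (limma), and was lost without L12-ECKO replicate 1, 2 or 4 or WT replicate 1, 2 or 4. Over all 24 other settings run for this comparison it was lost in 8, among them displaced rows as a covariate (limma adjusted p = 0.0921) and a variance prior with no trend and no robust step (limma adjusted p = 0.184). Edn1 differed by -1.46 in L12YT-ECKO versus L12-ECKO (limma adjusted p = 0.13). Of the 12 members of that list, 8 lay higher and 4 lower in L12-ECKO versus WT, with a median of 0.44. Of 20 ligands, receptors and partners of the members 12 were tested, and none was called. These included 10 that lay higher in L12YT-ECKO versus L12-ECKO, with a median of 0.31, and in L12-ECKO versus WT 8 lay lower, with a median of -0.33. Cd44, which encodes another hyaluronan receptor, differed by -0.95 and 1.53 in these comparisons (limma adjusted p = 0.808 and 0.146), and Notch1, a receptor gene of arterial identity, by 0.07 and -0.24.

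Of 11 arterial genes, the counterpart of the venous members, 9 lay lower in L12-ECKO than in WT, with a median of -0.69. Lower values were not confined to arterial genes. Of 8 lung capillary markers 7 lay lower and 1 higher (median -0.59), and of 12 pan-endothelial markers 9 lay lower and 2 higher (median -0.21). The only 1 of these capillary markers that was called was the higher one, Apln, which rose by 2.61 (SE 0.297, limma adjusted p = 0.00038). Sox17, a transcription factor gene of arteries, fell by 1.16 (SE 0.224, limma adjusted p = 0.0267) and the connexin gene Gja4 fell by 1.37 (SE 0.301, limma adjusted p = 0.0481), which makes 2 called of 11, against 0.481% of all genes. Leaving out any 1 of the 12 libraries ended the call of Gja4 (limma adjusted p = 0.054 to 0.16), and leaving out L12-ECKO replicate 2 or 3 or WT replicate 1, 2 or 3 ended that of Sox17 (limma adjusted p = 0.0167 to 0.0835 over the 12 fits). Over all 24 other settings run for this comparison, Gja4 was not called in 21 and Sox17 in 11. With displaced rows as a covariate, Gja4 differed by -1.43 (limma adjusted p = 0.242) and Sox17 by -1.19 (limma adjusted p = 0.147). With pan-endothelial scaling, Gja4 differed by -1.06 (limma adjusted p = 0.107) and Sox17 by -0.85 (limma adjusted p = 0.0998). Among the 7 libraries without displaced rows, the single L12-ECKO library differed from WT by -0.77 in Sox17, which gives no replicate check. For L12YT-ECKO versus L12-ECKO 9 of the 11 lay higher, with a median of 0.91 and none called, and in L12YT-ECKO versus WT 6 lay higher, with a median of 0.002.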

How the data were processed

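The libraries hold RNA of sorted mouse lung endothelial cells. Per the labels' protocols, total RNA was extracted with Trizol and libraries were made with the Lexogen QuantSeq kit, which reads near the 3-prime end of each transcript. Bowtie2, edgeR and the mm10 build are named, without roles or versions, per the submitters' processing notes. The authors deposited 1 table per library with a log2 value for each of 24421 genes. Quantile normalization is inferred from the numbers alone: over the 5000 highest ranks the libraries differed by at most 0.168. Reads could not be recovered from them, so no count test was run.

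27 genes with date-like names in 2 libraries, 33 displaced rows and 2 exchanged rows (Rn45s and Rn4.5s) were left out. Groups and replicate numbers came from the sample titles. limma 3.58.1 (R 4.3.3, statmod 1.5.0) fitted the 3 group means to all 12 libraries together, with a robust variance prior that follows the mean (9 residual degrees of freedom), on the deposited log2 values. Genes needed a CPM, computed from the values raised from the log2 scale, of at least 1 in at least 4 libraries. Benjamini-Hochberg adjustment ran over 11633 genes, and calls were made under 0.05. The fit was tested on simulated data. All 10 members are named. From each of 5 further lists the called genes are named, or with none called the 2 with the highest mean. The members and lists were chosen with earlier results of these data known. Positions are from GENCODE M21 (GRCm38).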

Additional observations from a re-analysis of the deposited data

Results flagged for a closer look

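In 5 of 25 combinations of a member and a genotype with any spread, 1 library stood apart from the other 3 (Dixon's test at the 95% level). Chance flags about 1 in 20 groups of continuous values, but that rate does not hold for values floored at 0: where the other 3 libraries are all at 0, as for Reln in L12YT-ECKO and Mmrn1 in WT, any single value above 0 is flagged. Slc6a2 was at 5.658 and Pdpn at 0 in L12-ECKO replicate 3, the library with the fewest genes above 0. Mmrn1 was at 6.589 in L12-ECKO replicate 2 and at 6.942 in WT replicate 2, with the others of each genotype at or near 0. Reln was at 0.817 in L12YT-ECKO replicate 3 and at 0 in the other 3.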

How the results depend on the processing

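No member was called under any of the 25 other settings, and the smallest limma adjusted p was 0.0787 (Lyve1, L12YT-ECKO versus L12-ECKO, pan-endothelial scaling). The setting with the libraries with displaced rows alone was added after the data were seen. Of 508 differences recomputed 38 changed sign, none of them of a called gene, and the cause was not tested. In L12-ECKO versus WT, Mmrn1 became 0.0070 on the scale log2(value + 1), 0.24 with pan-endothelial scaling and 0.55 with sex as a covariate. Slc6a2 became 0.18 with pan-endothelial scaling, 0.82 in libraries without displaced rows and 0.080 with library weights. Pdpn became 0.18 with displaced rows as a covariate and 0.98 in libraries without them. In L12YT-ECKO versus WT, Nr2f2 became 0.16 with that covariate, Vwf -0.14 in libraries without displaced rows, and Mmrn1 -0.18 with values under 5 raised to 5. In L12YT-ECKO versus L12-ECKO, Mmrn1 became -0.089 with values under 5 raised to 5, Pdpn 0.16 on the scale log2(value + 1), Slc6a2 -0.78 in libraries without displaced rows and Vwf 0.28 in those with them.

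Leaving out 1 library at a time, differences in L12-ECKO versus WT ran from -0.044 to 0.28 for Vwf, -1.03 to 0.62 for Slc6a2, -1.68 to 0.71 for Pdpn and -1.71 to 1.66 for Mmrn1. In L12YT-ECKO versus WT they ran from -0.012 to 0.30 for Ephb4, -0.063 to 0.29 for Vwf, -0.37 to 0.93 for Slc6a2 and -0.20 to 2.71 for Mmrn1. In L12YT-ECKO versus L12-ECKO they ran from -0.23 to 0.18 for Vwf, -0.088 to 0.97 for Slc6a2, -2.27 to 0.078 for Pdpn and -0.13 to 2.69 for Mmrn1. With the replicate block, the number of members called was 0 in each comparison, and same-numbered libraries did not deviate together (correlations of -0.05 to 0.06, against -0.10 to 0.15 for other pairs). The number of all genes called in L12-ECKO versus WT, 56, ran from 7 (a variance prior with neither trend nor robust step) to 92 (pan-endothelial scaling, which moved the median of all genes to 0.29, with 87 higher and 5 lower, against 34 and 22), and from 15 without WT replicate 2 to 80 without WT replicate 3. With inferred sex or displaced rows as a covariate, which coincide within L12-ECKO, the number in L12-ECKO versus WT was 15. In L12YT-ECKO versus L12-ECKO it was 8, and ran from 0 in libraries with displaced rows (396 genes at an unadjusted p under 0.05) to 23 with library weights. In L12YT-ECKO versus WT it was 1, and 3 without WT replicate 1. Of 120 pairs of a member and a library, 83 lay above 0 and 72 above 5.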
